A study of Homo sapiens with 12 samples.

Results

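Hs578T is a human breast cancer cell line with a mesenchymal expression pattern. The comparison described here set Hs578T cells given a methylated DNA oligonucleotide (M) against Hs578T cells given the same oligonucleotide without methylation (U). It rests on 4 of the 12 arrays of the series, chosen by the cell line and treatment in the labels. The array titles name the treatments CDH13 M and CDH13 U. The groups were 2 arrays with M and 2 arrays with U, and the array titles placed 1 of each in set 1 and 1 of each in set 2. Both groups received 200 nM of double-stranded oligonucleotide with the DOTAP liposomal transfection reagent for 24 h, so the M and the U cells alike carried foreign DNA and lipid. Cells without oligonucleotide were not analysed here. The labels call the sets biological replicates of this 1 line, and the array names carry a different date for each set. The same treatments in BT-20, another breast cancer line, gave 4 more arrays that are set beside the result, and the remaining 4 arrays were not used.

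M and U share the letters below, printed from 5′ to 3′ with their complementary strand. Capitals mark the cytosines that carry a methyl group in M and none in U, at positions 2, 7, 11 and 16 of the top strand and 14, 19, 23 and 28 of the complementary strand. All of them lie in CG dinucleotides, 4 on each strand of 30 bases, and no letter differs between M and U.
top strand: tCggatCgccCggcaCgggcagggtgaggg
complementary strand: ccctcaccctgccCgtgcCgggCgatcCga

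DNA is read as a danger signal when it turns up in the wrong place. Toll-like receptor 9, in the endosome, is known for binding DNA with unmethylated CG dinucleotides, which are common in bacteria and rarer in vertebrate DNA, and it signals through the adaptor MYD88 to NF-kB and interferon genes. In the cytosol, cGAS binds double-stranded DNA and acts through STING. Methylated CG is bound by proteins with a methyl-CpG-binding domain, while DNMT enzymes write the mark and TET enzymes oxidise it.

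The values are log2 expression values from GCRMA, a method that corrects the probes of an Affymetrix array for background and gives 1 value per probe set (a group of probes for a transcript). A difference of 1 is a doubling on this scale. The 4 Hs578T arrays correlated with each other at 0.993 to 0.997 over all 54675 probe sets. Of 10 mesenchymal marker genes, 10 were at 5 or above in all 4 arrays, and their median was 13.6 in Hs578T cells and 3.43 in BT-20 cells. Vimentin (VIM), the intermediate filament of mesenchymal cells, was at 15.15 and 15.22 with M and at 15.25 and 15.33 with U. Of 10 epithelial markers 2 reached 5 in all 4 arrays, and of 4 immune cell markers 0 did. A sign of RNA quality differed between M and U in both sets: the 3′ minus the 5′ probe set of ACTB was 0.94 and 0.79 with M and 0.81 and 0.69 with U, and its part in the results was not tested. The same measure of GAPDH went the other way in both sets, with -0.080 and -0.043 with M and -0.036 and -0.026 with U. That of ACTB was 0.87 and 0.92 with M and 0.92 and 0.77 with U in BT-20 cells.

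Of 19775 genes, 9456 had a mean of at least 5 over the 4 Hs578T arrays and were tested. No gene passed a Benjamini-Hochberg adjusted p of 0.05 in limma (0.0% of genes called), and the smallest adjusted p was 0.644. An unadjusted p under 0.05 was reached by 669 genes (7.07%), 304 higher (3.21%) and 365 lower (3.86%) with M. With the set as a block, since M and U of 1 set share an array date and deviated together, 1427 genes (15.1%) reached an unadjusted p under 0.05, 571 of them higher (6.04%) and 856 lower (9.05%). The smallest adjusted p was then 0.229, and still no gene passed. Since 2 arrays against 2 cannot give an exact two-sided permutation p below 0.333, single genes below are given by their values in each set and by the standard error (SE) of the limma fit.

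The sets agreed on direction more often than not. M minus U had 1 sign in both sets for 6229 of the 9456 genes (65.9%): 2717 were higher with M in both sets (28.7%) and 3512 were lower in both (37.1%). The same genes in BT-20 had 1 sign in both sets in 48.9% of cases. Genes and probe sets were picked by their level in Hs578T only, and some were near background in BT-20, such as ZEB1 at a mean of 2.15. Without a filter on level the share in Hs578T was 42.6%. The part of this choice in the contrasts between the lines was not tested. Across the 9456 genes, which are not independent and share arrays and depth of signal, the differences of set 1 and set 2 had a Pearson r of 0.43 in Hs578T cells, against 0.058 in BT-20 cells. The differences were wider in set 2 (SD 0.384 over genes) than in set 1 (SD 0.237), and 197 genes differed by at least 1 in set 2 against 38 in set 1.

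**Figure D1:**
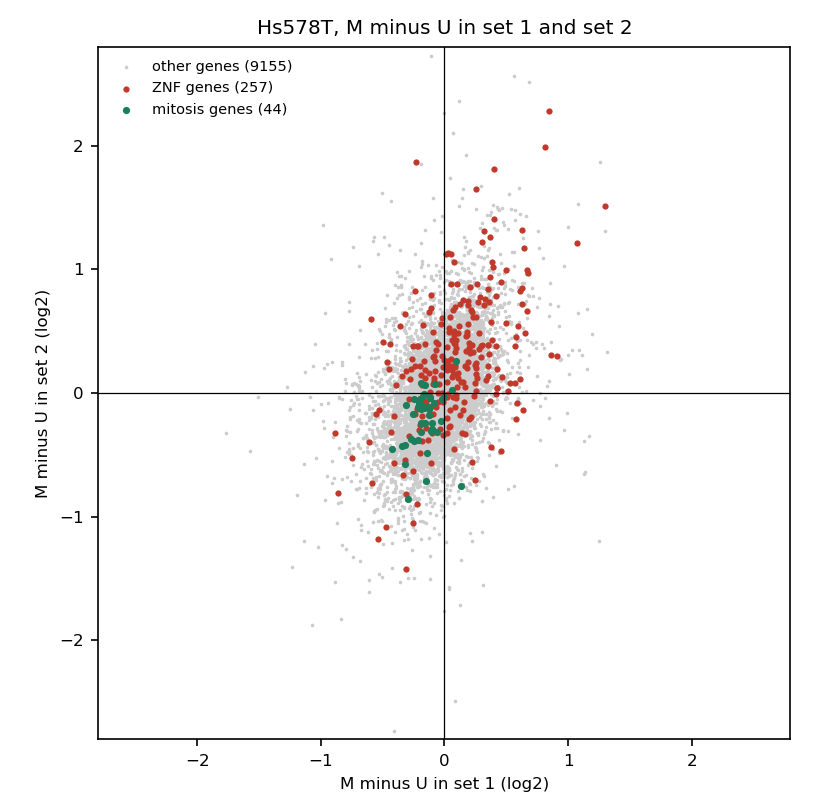
M minus U in Hs578T for each gene tested, in set 1 (horizontal axis, log2) and in set 2 (vertical axis, log2). Grey points are all other genes, red points are 257 genes with a ZNF symbol, of which 131 were higher in both sets, and green points are 44 mitosis genes, of which 38 were lower in both sets.

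A difference of at least 0.5 in 1 direction in both sets was found for 170 genes, 71 of them higher (0.751% of genes tested) and 99 lower (1.05%) with M. In BT-20 cells 45 of the same genes tested, picked by their level in Hs578T, were higher (0.476%) and 16 lower (0.169%) by this measure. Opposite differences of that size in the 2 sets were found for 22 genes in Hs578T. Of the 71 higher genes 15 had a Hs578T array under 5, near background, and of the 99 lower genes 21 did. For 67 of the 71 higher genes both M arrays lay above both U arrays, and for 87 of the 99 lower genes both M arrays lay below both U arrays. Over all genes tested, 16.3% had both M arrays above both U arrays, and 21.0% had both below. The 71 and 99 genes were chosen by the differences of these same arrays, so their larger shares follow mostly from that choice.

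The 12 genes with the largest differences in this direction, ranked by the smaller of their differences in the 2 sets, held 4 non-coding RNAs and 4 zinc finger genes. LINC01119, a long intergenic non-coding RNA on chromosome 2, was at 6.31 and 6.62 with M and at 5.01 and 5.31 with U. Its difference was 1.30 in set 1 and 1.31 in set 2, a mean of 1.31 ± 0.18 (SE of the limma fit, 2 arrays each) or 2.47-fold, and the M and U arrays did not overlap. ZNF431, a zinc finger gene of chromosome 19, was at 7.53 and 7.96 with M and at 6.23 and 6.45 with U. THAP2, which encodes a protein with a DNA-binding THAP domain, was at 5.72 and 6.47 with M and at 4.46 and 4.60 with U. All 4 arrays were in the same order for both genes, M above U, and the U values of THAP2 were under 5.

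THUMPD3-AS1, an antisense RNA with 3 probe sets that all went the same way, was at 6.65 and 7.46 with M and at 5.57 and 5.93 with U. GLIDR, another non-coding RNA, was at 5.88 and 6.41 with M and at 4.88 and 5.07 with U. DNM3OS, a non-coding RNA transcribed opposite to the dynamin gene DNM3, was at 6.17 and 5.76 with M and at 5.20 and 4.73 with U. These RNAs thus had differences of 0.97 to 1.53 in every set, and the U values of GLIDR in set 1 and DNM3OS in set 2 were under 5. KPNA5, an importin alpha that carries proteins into the nucleus, had nearly equal differences, 0.86 in set 1 and 0.89 in set 2, from 8.26 and 8.33 with M and 7.40 and 7.44 with U. CDK5R1, the p35 activator of the kinase CDK5, differed by 0.80 and 1.09, and H2BC5, a histone H2B gene, by 0.77 and 1.17. The mean change of H2BC5, 0.97, was 0.42 without the M array of set 2, 0.63 without the U array of set 1 and 1.52 without the M array of set 1. As a group, RNAs whose names mark them as long intergenic, antisense or divergent transcripts showed no lean, with 39 of 134 higher (29.1%) and 38 lower (28.4%) in both sets. Just outside the 12 genes named in this direction was MAP3K2-DT, another non-coding RNA, with 0.76 in set 1 and 0.77 in set 2.

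In the other direction the same ranking gave 12 genes lower with M. CIB2, a calcium- and integrin-binding protein, was at 5.11 and 5.09 with M and at 6.35 and 6.50 with U, a mean change of -1.32 ± 0.20 (SE), so that M was 2.50-fold below U. CTSV, the lysosomal protease cathepsin V, was at 4.65 and 4.57 with M and at 5.79 and 5.77 with U. INF2, a formin that builds and severs actin filaments, was at 6.73 and 6.39 with M and at 7.76 and 7.63 with U. For all of these the M arrays lay below the U arrays, and for CTSV both M values were under 5, near the background of the array.

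The list also held genes of secreted and surface proteins. FGF5, a fibroblast growth factor, was at 6.61 and 6.91 with M and at 7.44 and 7.79 with U. IL7R, the interleukin 7 receptor, was at 6.45 and 5.79 with M and at 7.64 and 6.62 with U. EDN1, the vasoconstrictor peptide endothelin 1, was at 9.32 and 8.39 with M and at 10.28 and 9.25 with U. TNFSF9, the ligand of the T cell receptor 4-1BB, was at 5.67 and 3.22 with M and at 6.74 and 5.10 with U. Its M value in set 2 was under 5, near background. For EDN1 and TNFSF9 the sets were about as far apart as M and U, so M and U overlapped over the 4 arrays although M was lower within each set. The SE of the limma fit was 0.69 for EDN1 and 0.80 for TNFSF9, but 0.24 and 0.21 with the set as a block. Leaving out 1 array moved the mean change of TNFSF9, -1.47 with 4 arrays, to -2.70 without the M array of set 1 and to -0.25 without the M array of set 2. It was -0.66 without the U array of set 1 and -2.29 without the U array of set 2. For EDN1, at -0.92, the values were -1.38 and -0.45 without either M array and -0.40 and -1.43 without either U array, in the order of the sets. For IL7R, at -1.01, they were -0.50 without the U array of set 1 and -1.52 without the U array of set 2.

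Of the remaining genes of this direction, PTPN3, a tyrosine phosphatase, differed by -0.83 in set 1 and -1.23 in set 2. CRB3, a protein of the crumbs polarity complex, differed by -0.84 and -1.83 (mean -1.33, and -0.83 without the U array of set 2), and the non-coding RNA LINC00886 by -0.88 and -1.53. SH3RF3, with -0.87 and -1.05, and the pregnancy-specific glycoprotein PSG7, with -0.86 and -0.89, complete the 12. Just outside them was ZNF526, with -0.86 and -0.81. FGF2 (-0.71 and -0.78), the Wnt antagonist DKK1 (-0.51 and -1.03) and GADD45A (-0.54 and -0.80), a stress-induced growth arrest gene, were also lower by at least 0.5 in both sets, and these 3 were picked after their values had been seen.

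**Figure D2:**
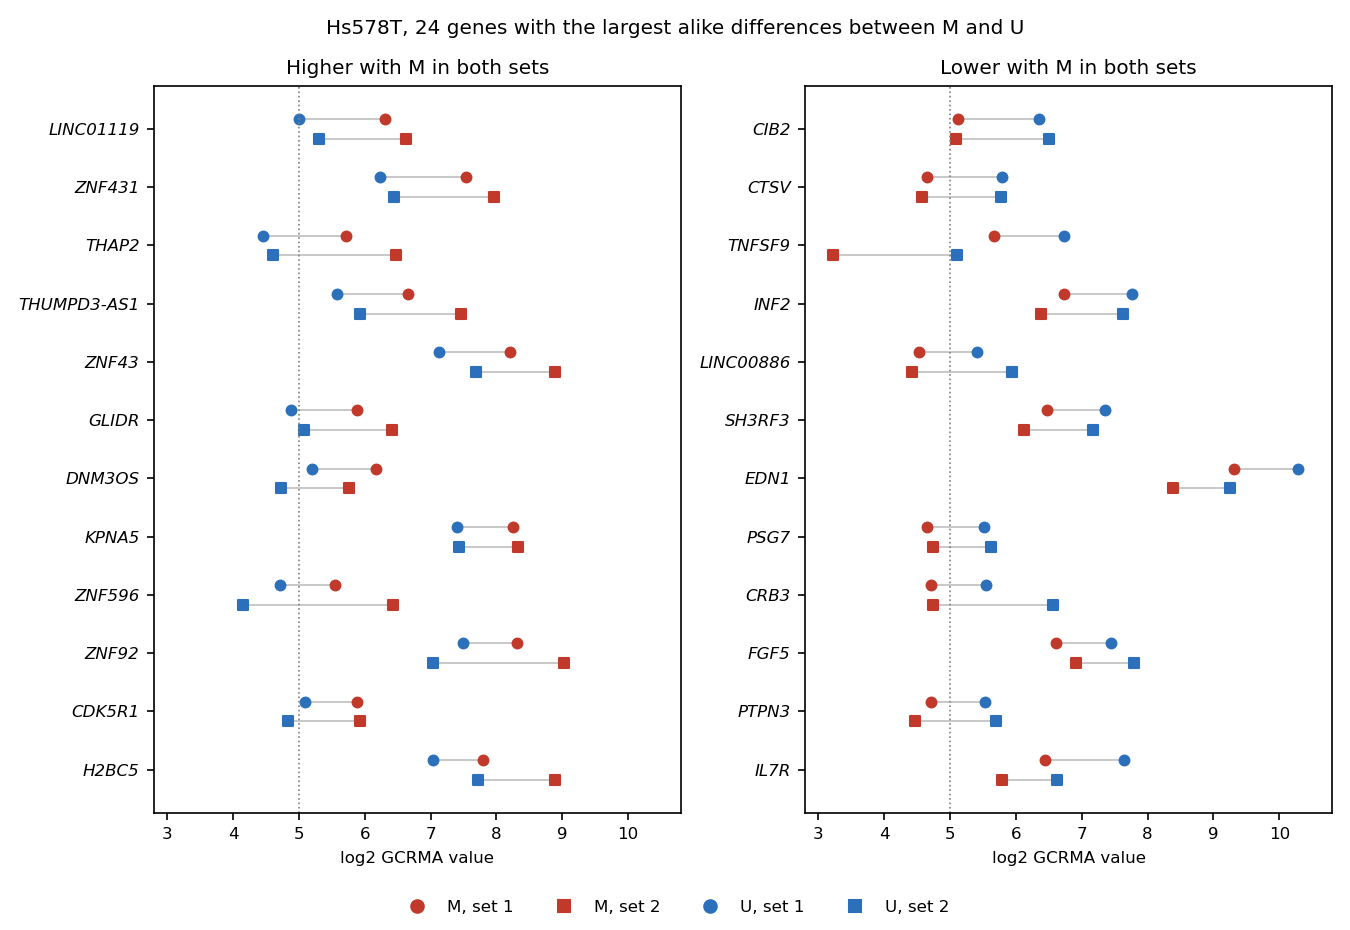
Log2 GCRMA values (horizontal axis) of 24 genes in the 4 Hs578T arrays, with the 12 genes that were higher with M in both sets on the left and the 12 that were lower on the right. Red is M and blue is U, circles are set 1 and squares are set 2, grey lines join the arrays of 1 set, and the dotted line is at 5. KPNA5 shows nearly the same gap in both sets (0.86 and 0.89), while TNFSF9 shows a wide gap between the sets.

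These differences were set against those of BT-20 cells in the same fit. For LINC01119 the mean difference was 1.31 ± 0.18 in Hs578T and -0.02 ± 0.18 in BT-20 (SE), where its values of 4.30 and 4.55 with M and 4.45 and 4.43 with U were all under 5. For KPNA5 it was 0.87 ± 0.13 in Hs578T and -0.15 ± 0.13 in BT-20, and for CIB2 -1.32 ± 0.20 in Hs578T and -0.20 ± 0.20 in BT-20. No gene passed the test of the difference between the lines (0.0% called, smallest adjusted p 0.999), and 236 genes (2.5%) reached an unadjusted p under 0.05. With the set as a block these were 661 genes (6.99%), 2.59% of all genes in the direction of a higher and 4.4% in that of a lower difference in Hs578T, with a smallest adjusted p of 0.582. For none of these genes was a difference between the lines established.

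Zinc finger genes were higher with M more often than genes at large. Most human genes with a ZNF symbol encode C2H2 zinc finger proteins, many of them with a KRAB domain that recruits the corepressor TRIM28, and the largest clusters of them lie on chromosome 19. Of 257 tested, 131 (51.0%) were higher with M in both sets and 45 (17.5%) lower in both, against 28.7% and 37.1% of all genes tested. Their median difference was 0.08 in set 1 and 0.22 in set 2, against -0.04 and -0.0002 over all genes. An unadjusted p under 0.05 was reached by 36 of them higher (14.0%, against 3.21% of all genes) and 9 lower (3.5%, against 3.86%). With the set as a block these were 57 higher (22.2%, against 6.04%) and 20 lower (7.78%, against 9.05%). Zinc finger genes made up 13 of the 71 genes higher by at least 0.5 in both sets and 4 of the 99 lower ones. Both shares lay above that among all genes tested (257 of 9456). The group was put together after the values had been seen. Its median change of 0.15 was 0.10 without the M array of set 2 and 0.20 without the M array of set 1.

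The shares differed by chromosome. Of 113 ZNF genes there, 69 (61.1%) were higher in both sets and 15 (13.3%) lower, with medians of 0.09 and 0.33. Of 144 on other chromosomes, 62 (43.1%) were higher and 30 (20.8%) lower, with medians of 0.04 and 0.15. The other 500 genes of chromosome 19 leaned the other way, with 126 (25.2%) higher and 204 (40.8%) lower in both sets.

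Members of the group are shown with their values. ZNF224 was at 6.62 and 6.90 with M and at 5.95 and 5.93 with U. ZNF43 was at 8.20 and 8.90 with M and at 7.13 and 7.68 with U, and ZNF92, of chromosome 7, was at 8.31 and 9.03 with M and at 7.50 and 7.04 with U. M lay above U in every array of these genes, with mean changes of 0.82 ± 0.14, 1.14 ± 0.27 and 1.40 ± 0.27 (SE). ZNF596, of chromosome 8, was at 5.55 and 6.43 with M and at 4.71 and 4.14 with U, where both U values were under 5. ZNF273 (0.63 in set 1 and 0.85 in set 2) and ZNF432 (0.62 and 1.32, picked after its values were seen) went the same way, and ZNF343 (-0.75 and -0.53, also picked so) was among the lower ones.

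The level of the genes and the design of the probes were checked beside this. Among ZNF genes with a mean of 5 to 7, 45.2% were higher in both sets, against 23.2% of all genes at that level. With a mean of 7 to 9 these shares were 56.6% and 27.4%. Zinc finger genes resemble each other in sequence, and a probe set whose name ends in _x_at or _s_at may match several of them. Of 30 genes read by an _x_at probe set, 20 were higher and 3 lower in both sets, and of 48 read by an _s_at probe set, 17 were higher and 10 lower. For the 179 genes read by other probe sets, 94 (52.5%) were higher and 32 (17.9%) lower in both sets. A lean in the same direction was present in BT-20 cells, where 96 of the 257 genes (37.4%) were higher and 48 (18.7%) lower in both sets, against 23.6% and 25.3% of all genes, with medians of 0.05 and 0.06. M minus U was higher in Hs578T than in BT-20 for 13 of the 257 and lower for 1 at an unadjusted p under 0.05 for the difference between the lines, as it was for 1.05% and 1.45% of all genes.

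Mitosis genes went the other way, by little but together. Of 44 tested, 38 (86.4%) were lower with M in both sets, 2 were higher in both and 4 were split, against 37.1% lower in both sets over all genes. Their median difference was -0.17 in set 1 and -0.13 in set 2. An unadjusted p under 0.05 was reached by 4 of them, all lower, and by 8 with the set as a block, where 3.86% and 9.05% of all genes were lower at that p. Both M arrays lay below both U arrays for 14 of the 44 (21.0% over all genes). In a bulk sample, fewer cells in mitosis and less of these RNAs per cell cannot be told apart.

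AURKB, the kinase of the chromosomal passenger complex, was at 9.55 and 9.87 with M and at 9.97 and 10.33 with U. CDCA8, the borealin subunit of that complex, was at 9.65 and 9.84 with M and at 9.97 and 10.42 with U. KIF2C, a kinesin that takes microtubules apart at the kinetochore, was at 10.40 and 10.57 with M and at 10.74 and 11.00 with U. In each of these, M minus U lay between -0.58 and -0.32 within a set, and set 2 was the higher set for either oligonucleotide. CDC25B, the phosphatase that activates CDK1, had the largest mean change of the 44, with -0.29 in set 1 and -0.86 in set 2. The classical proliferation markers differed less: MKI67 by -0.06 and -0.32, TOP2A by -0.12 and -0.13, and cyclin B1 (CCNB1) by -0.13 and -0.11. For TOP2A and CCNB1 the mean change was smaller than its SE of 0.15 and 0.14. The only members higher in both sets were the kinesin KIF20A (0.06 and 0.02) and the spindle checkpoint gene MAD2L1 (0.09 and 0.26), named here after their values were seen.

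**Figure D3:**
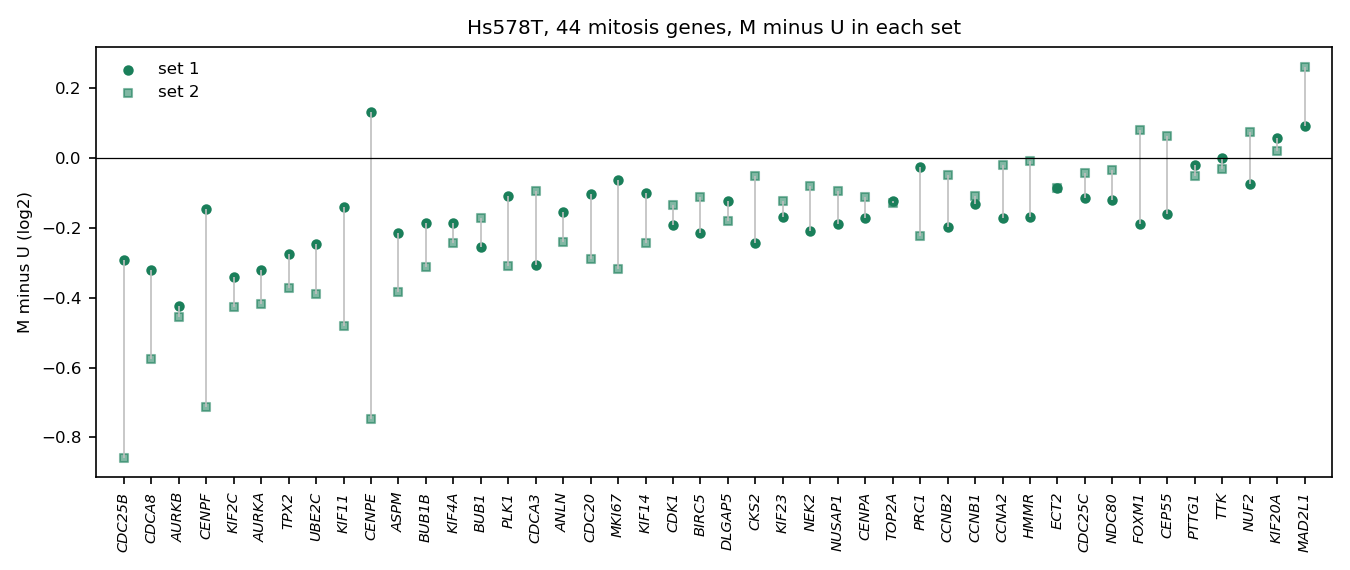
M minus U (vertical axis, log2) of the 44 mitosis genes in Hs578T, ordered along the horizontal axis by the mean change, with circles for set 1 and squares for set 2. Most pairs lie below 0, and MAD2L1 at the right end is above 0 in both sets.

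The same genes were lower in BT-20 too, with medians of -0.17 in set 1 and -0.07 in set 2, and 30 of 44 were lower in both sets against 25.3% of all genes tested there. The shift is therefore not shown to be particular to Hs578T. Its size hung on single arrays: the median change over the list was -0.16 with 4 arrays, -0.049 without the M array of set 1, -0.28 without the M array of set 2, -0.31 without the U array of set 1 and -0.045 without the U array of set 2.

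Cell cycle genes of this kind are known to share short promoter elements, a CCAAT box bound by NF-Y and the cell cycle homology region TTTGAA or TTTAAA bound by the DREAM and B-MYB complexes. RefSeq promoters (GRCh38.p14, 250 bases before to 50 after the start) were at hand for 38 of the 44 genes. CCAAT, on either strand, was present in 30 of them (78.9%), against 37.8% of the tested genes with a promoter and 35.7% of all promoters. TTTGAA or TTTAAA, on either strand, was present in 32 (84.2%), against 15.8% and 24.3%, and both elements in 26 (68.4%), against 6.64% and 9.49%. The 250 bases before the start of CDCA8 and of AURKB are shown since these genes work in 1 complex and differed alike. The same windows of CDC25B and KIF2C, which were lower in both sets as well, held 0 matches to either element. Capitals mark CCAAT or its reverse complement ATTGG, and TTTGAA, which in CDCA8 overlaps an ATTGG.
CDCA8, chr1:37692266-37692515, plus strand: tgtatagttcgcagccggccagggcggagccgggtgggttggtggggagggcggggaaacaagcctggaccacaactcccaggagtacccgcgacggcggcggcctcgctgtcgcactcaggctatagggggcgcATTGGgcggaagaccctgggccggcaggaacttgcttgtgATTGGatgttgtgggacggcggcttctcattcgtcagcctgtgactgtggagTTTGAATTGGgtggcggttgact
AURKB, chr17:8210226-8210475, minus strand: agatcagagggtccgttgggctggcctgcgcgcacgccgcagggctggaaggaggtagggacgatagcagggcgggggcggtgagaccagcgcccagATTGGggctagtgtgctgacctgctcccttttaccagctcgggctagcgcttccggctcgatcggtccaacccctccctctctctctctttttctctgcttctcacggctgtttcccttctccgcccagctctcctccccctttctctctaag
In CDCA8 there were 3 matches to CCAAT and 1 to TTTGAA, and in AURKB 1 match to CCAAT and 0 to the other element. A match describes the letters only.

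DNA replication genes leaned the same way less evenly. Of 46 tested, 29 (63.0%, against 37.1% of all genes) were lower with M in both sets. Another 4 were higher (8.7%, against 28.7%) and 13 split, with medians of -0.18 in set 1 and -0.07 in set 2. POLD1, the catalytic subunit of DNA polymerase delta, was at 7.95 and 7.61 with M and at 8.31 and 8.34 with U. CLSPN (claspin, of the replication checkpoint) was at 5.20 and 5.15 with M and at 5.62 and 5.49 with U. POLA2, the accessory subunit of polymerase alpha, differed by -0.47 and -0.44, and the helicase subunit MCM2 by -0.22 and -0.19. PCNA, the sliding clamp, was split, with -0.01 in set 1 and 0.35 in set 2. An unadjusted p under 0.05 was reached by 2 members, and by 7 with the set as a block, all lower, where 3.86% and 9.05% of all genes were. The median change of -0.13 became -0.034 without the M array of set 1 and -0.077 without the U array of set 2. It was -0.23 without the M array of set 2. In BT-20, 22 of the 46 were lower and 0 higher in both sets, against 25.3% and 23.6% of all genes. The medians there were -0.12 in set 1 and -0.04 in set 2, so the lean is not shown to be particular to Hs578T.

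Immediate early genes, which growth factors and stress switch on within minutes, were mostly lower with M in Hs578T. Of 19 tested, 11 were lower in both sets (57.9%, against 37.1% of all genes), 4 higher and 4 split, with medians of -0.24 in set 1 and -0.39 in set 2. MYC was at 10.79 and 10.27 with M and at 11.19 and 11.13 with U, a mean change of -0.63 ± 0.23 (SE). JUN, a subunit of the AP-1 factor, was at 10.84 and 10.48 with M and at 11.08 and 11.14 with U. For both genes M lay below U in all 4 arrays. Its relative JUNB went the opposite way, at 8.68 and 9.07 with M and at 8.52 and 7.89 with U, and EGR1 differed by 0.09 and 0.07 only.

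Genes downstream of the ERK and YAP pathways were lower as well in most cases, in lists that share members with the first and were put together after the data had been seen. Of 21 ERK feedback genes and targets, 13 were lower in both sets (61.9%, against 37.1% of all genes) and 4 higher (19.0%, against 28.7%), with medians of -0.27 and -0.19. They include DUSP6, the phosphatase that dampens ERK (-0.45 in set 1 and -0.59 in set 2), PHLDA1 (-0.28 and -0.77) and the chromatin protein HMGA2 (-0.49 and -1.22). Of 21 YAP and TEAD targets, 13 were lower in both sets (61.9%) and 2 higher (9.52%), with medians of -0.11 and -0.24. CCN2, the matrix protein CTGF, was at 14.19 and 13.13 with M and at 14.43 and 13.74 with U, and its neighbour in function CCN1 differed by -0.34 and -0.80. The M and U arrays of CCN2 overlapped, since set 1 was higher than set 2 for both.

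In BT-20 these lists had medians of the opposite sign or near 0. Immediate early genes had 0.44 in set 1 and 0.07 in set 2, YAP and TEAD targets 0.25 and 0.02, and ERK targets 0.39 and -0.02. JUN differed by -0.45 ± 0.19 in Hs578T and by 0.40 ± 0.19 in BT-20, a difference between the lines of -0.85 ± 0.27 (SE). The adjusted p of that difference was 0.999 in limma over all genes. The median change of immediate early genes in Hs578T, -0.27 with 4 arrays, was -0.63 without the M array of set 1, -0.10 without the M array of set 2, -0.17 without the U array of set 1 and -0.40 without the U array of set 2. For YAP and TEAD targets the median change of -0.21 became 0.038 without the M array of set 2 and -0.0029 without the U array of set 1, and -0.35 and -0.37 without the M array of set 1 or the U array of set 2. For ERK targets the change of -0.24 lay between -0.40 and -0.14 when 1 array was left out, at -0.40 and -0.33 without the M array of set 1 or the U array of set 2, and at -0.15 and -0.14 without the M array of set 2 or the U array of set 1.

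Of the sensors of foreign DNA, TLR9 was low in these cells and CGAS was split between the sets. TLR9 was at 2.33 and 2.32 with M and at 2.32 and 2.33 with U, far under the level of 5 asked for, and was not tested. CGAS was at 4.89 and 5.65 with M and at 5.33 and 4.46 with U, so that the difference was -0.45 in set 1 and 1.20 in set 2. STING1 was at 5.75 and 5.73 with M and at 6.19 and 6.34 with U, and TRAF6, the ubiquitin ligase that carries Toll-like receptor signals, was at 5.16 and 5.02 with M and at 5.72 and 5.72 with U. TRAF6 was thus lower in every M array, with a mean change of -0.63 ± 0.14 (SE), and was 1 of the genes lower by at least 0.5 in both sets. The kinase IRAK1, next to TRAF6 in the pathway, differed by -0.21 and -0.31, and the adaptor MYD88 by 0.10 and 0.18. Of 22 DNA sensing genes tested, 4 were higher and 9 lower in both sets, or 18.2% and 40.9%, where 28.7% and 37.1% of all genes were.

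Interferon-stimulated genes did not move one way. Of 22 tested, 9 were higher and 9 lower with M in both sets (40.9% each, against 28.7% and 37.1% of all genes). IFIT2, which binds viral RNA, was at 6.15 and 6.87 with M and at 5.00 and 6.19 with U, so that it was higher within each set although the arrays overlapped. IFI44 was at 5.42 and 6.24 with M and at 5.36 and 4.13 with U, a difference of 0.07 in set 1 and 2.10 in set 2. PARP12, in contrast, differed by -0.21 and -0.49. Of 19 NF-kB targets 2 were higher (10.5%), 6 lower (31.6%) and 11 split, with medians of -0.16 in set 1 and 0.11 in set 2. The chemokine CXCL2 was at 5.66 and 6.66 with M and at 5.54 and 4.30 with U, a difference of 0.12 in set 1 and 2.36 in set 2, where the U value was under 5.

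**Figure D4:**
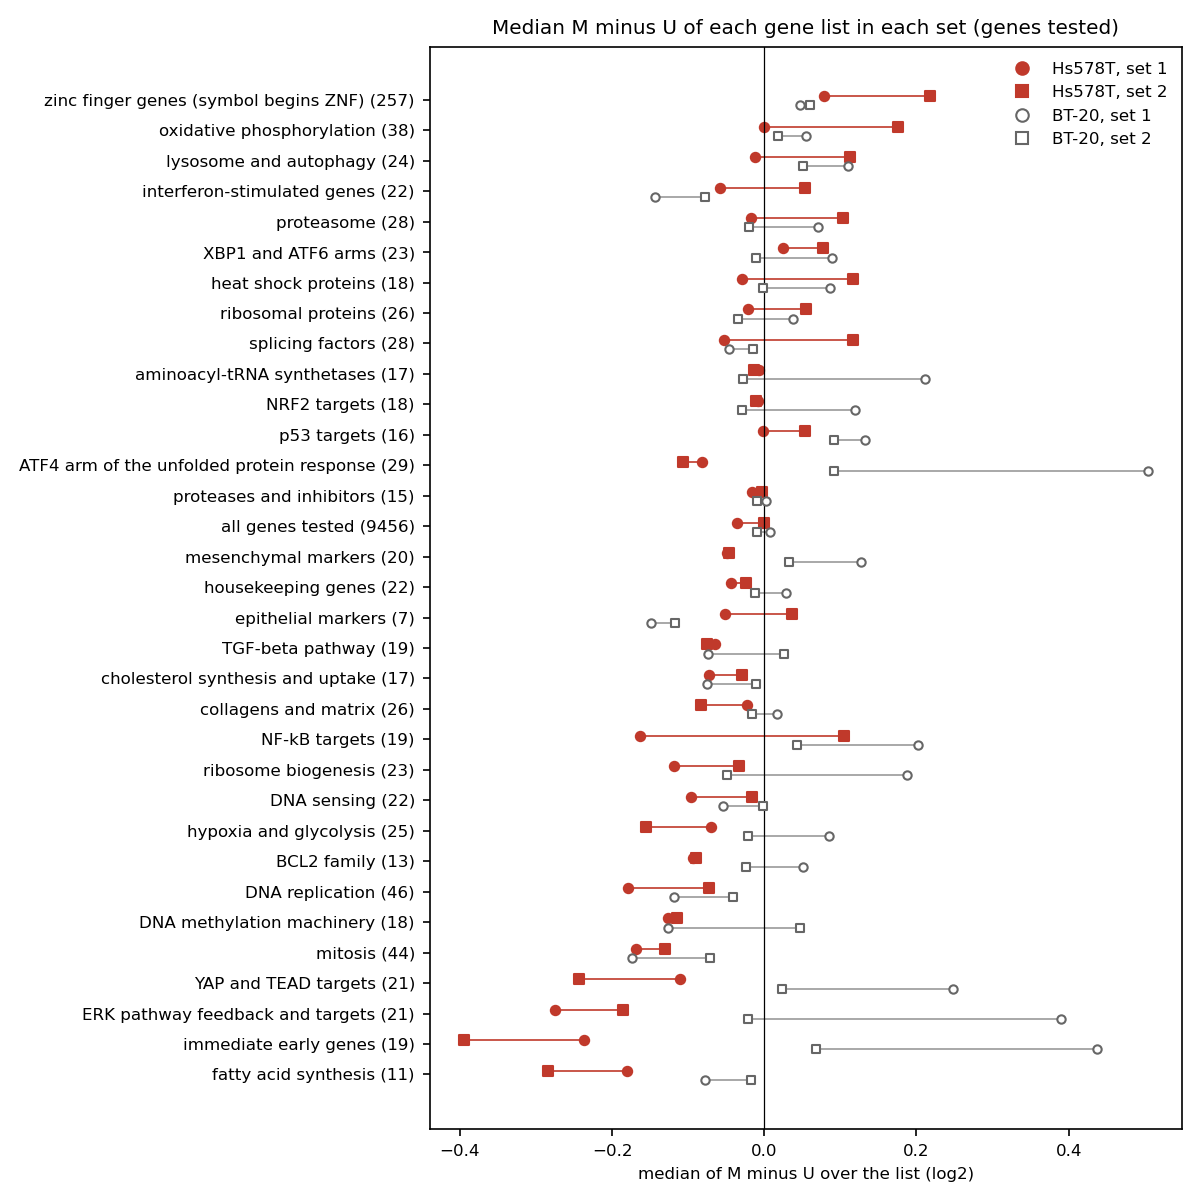
Median of M minus U (horizontal axis, log2) over the tested members of each gene list with at least 5 of them, so without the 3 nuclear-retained RNAs, with the number of members after its name, in Hs578T (red) and BT-20 (open grey), circles for set 1 and squares for set 2. Lists are ordered by the median change in Hs578T, with zinc finger genes at the top (0.08 and 0.22) and fatty acid synthesis at the bottom (-0.18 and -0.28).

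Proteins that write, read and remove DNA methylation are the cell's means of handling the mark that M carries. Of 18 tested, 11 were lower with M in both sets (61.1%, against 37.1% of all genes) and 4 higher (22.2%, against 28.7%). DNMT3B, which sets new methylation, was at 6.24 and 6.27 with M and at 6.93 and 6.50 with U. DNMT1, the maintenance enzyme, differed by -0.14 and -0.11, and its partner UHRF1 by -0.03 and -0.08. TDG, the glycosylase that cuts out oxidised methylcytosine, was higher, at 10.81 and 10.87 with M and at 10.56 and 10.27 with U. The reader MBD1 differed by 0.09 and 0.47 and the reader MBD2 by -0.18 and -0.37. The list, which shares UHRF1 with the replication list, had medians of -0.13 in set 1 and -0.11 in set 2. Its median change of -0.14 was -0.030 without the M array of set 2 and -0.20 without the U array of set 2. In BT-20 the medians were -0.13 and 0.05, and 4 of the 18 were higher and 4 lower in both sets. Of all genes 23.6% and 25.3% were so in BT-20.

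The arm of the unfolded protein response that runs through ATF4 did not go one way. Of 29 tested, 9 were higher (31.0%, against 28.7% of all genes) and 12 lower (41.4%, against 37.1%) with M in both sets. Their medians were -0.08 and -0.11. The median of the mean changes, -0.0055, was 0.092 without the M array of set 2 and -0.019 without the U array of set 1. It was -0.13 without the M array of set 1 and -0.14 without the U array of set 2. DDIT3 (CHOP), a stress-induced transcription factor, was at 7.92 and 7.90 with M and at 8.51 and 8.22 with U, and DDIT4, an inhibitor of mTORC1, was at 11.75 and 11.59 with M and at 12.11 and 12.13 with U. The amino acid transporter SLC7A5 differed by -0.28 and -0.50. ATF4 itself differed by -0.13 and -0.15. Members higher in both sets were the synthesis genes ASNS (0.26 and 0.14), PHGDH (0.16 and 0.25) and CTH (0.32 and 0.66), picked after their values were seen. CHAC1 was split, at 8.75 and 8.68 with M and at 8.83 and 7.87 with U. In BT-20 the list had medians of 0.50 and 0.09, and DDIT3 differed by 0.97 ± 0.21 there against -0.46 ± 0.21 in Hs578T.

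The XBP1 and ATF6 arms, which expand the folding capacity of the endoplasmic reticulum, were more often higher than lower. Of 23 genes tested, 9 were higher (39.1%, against 28.7% of all genes) and 3 lower (13.0%, against 37.1%) in both sets. Their medians were 0.02 and 0.08, but 0.05 and -0.04 when arrays were centred on housekeeping genes. This centring subtracts from each array its median level of 22 housekeeping genes. It moved the median difference of those genes themselves in set 2 from -0.02 to -0.14, so it is not a plain correction. With that centring 8 were higher (34.8%, against 24.2% of all genes) and 6 lower (26.1%, against 41.5%). DNAJC3, a cochaperone of that compartment, was at 10.54 and 10.47 with M and at 10.20 and 9.84 with U. XBP1 differed by 0.20 and 0.45, and HERPUD1, of the degradation pathway, by 0.09 and 0.53.

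Genes of glycolysis and of fatty acid synthesis were lower in most cases. Of 25 hypoxia and glycolysis genes, 18 (72.0%, against 37.1% of all genes) were lower with M in both sets and 4 higher, with medians of -0.07 and -0.16. With the mean over all probe sets of a gene these were 14 lower (56.0%) and 6 higher. HK1, a hexokinase, was at 11.00 and 10.95 with M and at 11.47 and 11.44 with U, a mean change of -0.48 ± 0.12 (SE), and M lay below U throughout. The glucose transporter SLC2A1 differed by -0.10 and -0.63, and ADM, the peptide adrenomedullin, by -0.49 and -0.89. VEGFA, a classical hypoxia target, differed by 0.07 and 0.01 only and was picked after its values were seen. Of 11 fatty acid synthesis genes, 7 were lower in both sets (63.6%) and 1 higher, with medians of -0.18 and -0.28, and the median change of -0.29 was -0.11 without the M array of set 2 and -0.18 without the U array of set 1. ACSS2, which makes acetyl-CoA from acetate, differed by -0.79 and -0.47, and fatty acid synthase (FASN) by -0.35 and -0.28. In the cholesterol list, 7 of 17 were lower (41.2%, against 37.1% of all genes) and 2 higher. The mevalonate enzymes MVK (-0.46 and -0.43) and MVD (-0.48 and -0.58) differed alike in both sets.

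Oxidative phosphorylation genes differed from these. Of 38 tested, 16 were higher (42.1%, against 28.7% of all genes) and 6 lower (15.8%, against 37.1%) with M in both sets. Their medians were -0.0002 in set 1 and 0.18 in set 2. With the mean over all probe sets of a gene, 12 were higher (31.6%, against 28.8% of all genes) and 6 lower (15.8%, against 36.8%). COX5A, a subunit of cytochrome c oxidase, was at 12.64 and 12.60 with M and at 12.50 and 12.19 with U. SDHA, the flavoprotein of succinate dehydrogenase, was lower, at 10.40 and 10.43 with M and at 10.65 and 10.93 with U. The SDHC subunit of the same enzyme differed by 0.19 and 0.38. In BT-20, 17 of the 38 genes were higher and 3 lower in both sets, against 23.6% and 25.3% of all genes.

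Of 13 tested members of the BCL2 family, 9 were lower (69.2%, against 37.1% of all genes) and 2 higher with M in both sets. MCL1, which protects cells from death, was at 10.64 and 10.55 with M and at 10.88 and 10.85 with U. PMAIP1 (NOXA), which opposes it, was at 12.09 and 12.06 with M and at 11.82 and 10.95 with U. M lay below U in all arrays of MCL1 and above U in all arrays of PMAIP1. Of 16 p53 targets tested, 6 were higher (37.5%, against 28.7% of all genes) and 5 lower (31.25%, against 37.1%) in both sets.

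In the matrix list, 14 of 26 genes were lower (53.8%, against 37.1% of all genes) and 3 higher (11.5%, against 28.7%) in both sets. COL8A1, a short-chain collagen, was at 11.87 and 11.61 with M and at 12.07 and 12.17 with U, and the proteoglycan LUM was at 13.87 and 13.60 with M and at 13.44 and 13.40 with U. Of 20 mesenchymal genes, 6 were higher (30.0%) and 9 lower (45.0%). Among them the receptor PDGFRB was at 7.57 and 7.34 with M and at 6.96 and 6.99 with U. Of 19 TGF-beta pathway genes 4 were higher (21.1%) and 8 lower (42.1%). Among 15 proteases and their inhibitors 4 were higher (26.7%) and 6 lower (40.0%).

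Ribosome biogenesis genes were more often lower than genes at large, with 13 of 23 lower in both sets (56.5%, against 37.1% of all genes) and 2 higher. They include POLR1A, the largest subunit of RNA polymerase I, at 6.66 and 6.45 with M and at 7.07 and 7.18 with U, while NIP7 was higher by 0.29 and 0.78. The remaining lists are given by their counts, where 28.7% of all genes tested were higher and 37.1% lower in both sets. Higher and lower in both sets were 6 and 5 of 26 ribosomal protein genes, 10 and 6 of 28 proteasome genes, 9 and 6 of 24 lysosome and autophagy genes, and 8 and 5 of 28 splicing factor genes. The splicing repressor PTBP1 was at 11.58 and 11.58 with M and at 11.92 and 12.04 with U. The counts were 5 and 2 of 18 heat shock genes, 3 and 5 of 18 NRF2 targets, and 3 and 6 of 17 aminoacyl-tRNA synthetases. Of 22 housekeeping genes 6 were higher and 10 lower, and TBP, the TATA-binding protein, was at 7.71 and 7.33 with M and at 7.81 and 7.69 with U. Of 7 epithelial genes that passed the level filter 2 were higher and 2 lower, and of 13 immune cell genes 0 passed it. Of 3 nuclear-retained RNAs tested, 1 was higher in both sets (NKTR, by 0.24 and 0.40), while MALAT1 (0.57 and -0.09) and MEG3 (1.13 and -0.38) were split.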

How the data were processed

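The submitters hybridised RNA of 12 samples to Affymetrix HG-U133 Plus 2.0 arrays. The deposited values are log2 expression values that, per the labels and the submitters' processing notes, the authors made with GCRMA in R 2.4, and no counts or depths exist for arrays, so their number limits the precision. Arrays were grouped by cell line and treatment in the labels, and 0 columns were left unmapped. The members of the comparison and the gene lists were chosen with earlier results of these data known, and the lists of zinc finger genes, ERK targets and YAP and TEAD targets were added after seeing the data.

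Of 54675 probe sets, 41097 name 1 gene in the platform annotation, 1801 name several and 11777 none. Symbols were updated through RefSeq (GRCh38.p14) for 41043. Each gene took the probe set with the highest mean over the 4 Hs578T arrays, and genes with a mean of at least 5 were tested.

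Group means were fitted to the 8 M and U arrays of both lines, which share 1 estimate of the spread, with limma 3.58.1 (lmFit and eBayes, R 4.3.3), with Benjamini-Hochberg adjustment over 9456 genes. The contrasts were M minus U in Hs578T and its difference from BT-20. The spread is that between these arrays, which may be technical. Same-set arrays deviated from their group means together (correlation 0.602 in Hs578T and 0.547 in BT-20, over genes), and the array names give each set its own date, so the set numbers were taken to pair the arrays and the block fit is given where it moves a count. The script was tested on simulated data.

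Named genes were the 12 per direction with the largest smaller-of-both differences and the next one outside, up to 4 members per list with the smallest limma p, and defining members of the pathways. Genes named beyond this rule are said to be picked after their values were seen, and VIM, ACTB and the list members in the mitosis plot were shown as markers or as the full list. Alternatives tried were the set as a block, only 4 arrays, no filter, a mean of at least 7, at least 5 in at least 2 of the 8 arrays, housekeeping centring, quantile normalization, a floor of 5, the mean over probe sets, trend and robust eBayes, no eBayes shrinkage, and leaving out each array.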

Additional observations from a re-analysis of the deposited data

Results flagged for a closer look

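The medians of 4 gene lists had 1 sign in both sets of Hs578T and the opposite sign in both sets of BT-20, and these differences between the lines were not tested. Immediate early genes had a median change of -0.27, with -0.24 and -0.39 in the sets of Hs578T against 0.44 and 0.07 in those of BT-20. YAP and TEAD targets had a median change of -0.21, with -0.11 and -0.24 in Hs578T against 0.25 and 0.02 in BT-20, and the median change turned to 0.038 without the M array of set 2. Genes of the ATF4 arm had a median change of -0.0055, with -0.08 and -0.11 in Hs578T against 0.50 and 0.09 in BT-20, and the median change turned to 0.092 without the M array of set 2. Mesenchymal markers had a median change of -0.016, with -0.05 and -0.05 in Hs578T against 0.13 and 0.03 in BT-20. Their median change ran from -0.073 without the U array of set 2 to 0.045 without the M array of set 2. The median level of the 10 mesenchymal marker genes described above was 3.43 in BT-20, under 5. Near background the sign of a difference says little, so this contrast between the lines is weak. Probe sets without a single gene name, which entered no comparison, were higher with M by at least 0.5 in both sets in 2.33% of cases (52 of 2235), against 1.01% of the probe sets with 1 gene. Groups of 2 arrays are too small for a check of outlying arrays.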

How the results depend on the processing

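In the 15 settings tried, 0 genes passed the adjusted threshold in Hs578T or between the lines. The 669 genes at an unadjusted p under 0.05 in Hs578T became 1129 without a filter on level, 204 with housekeeping centring, and 331 to 970 when 1 array was left out. For the difference between the lines, the 236 genes became 570 without a filter, 155 with a mean of at least 7, 78 with housekeeping centring, and 178 to 449 without 1 array. The share of genes with 1 sign in both sets, 65.9%, was 42.6% without a filter. The median change of immediate early genes, -0.27, was -0.12 without a filter, -0.43 with a mean of at least 7 and -0.63 to -0.10 without 1 array. That of mitosis genes, -0.16, was -0.20 with housekeeping centring and -0.31 to -0.045 without 1 array, and that of DNA replication genes, -0.13, was -0.23 to -0.034. Zinc finger genes, at 0.15, were at 0.027 without a filter, where 502 genes entered. Housekeeping centring moved the median of all genes in set 2 to -0.11, and then 24.2% of genes were higher and 41.5% lower in both sets, against 47.5% and 19.5% of zinc finger genes. The median difference of the 22 housekeeping genes themselves in set 2 moved from -0.02 to -0.14 with it. The causes of the other shifts were not tested. Of the 24 genes named for their alike differences, 0 changed sign in any setting that tested them. Only 8 of the 24 were tested with a mean of at least 7, and 16 with the mean over probe sets. The 24 were chosen for large differences of 1 sign in both sets of these same data. A change of sign was thus unlikely from the start, and the count does not test them.

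With the replicate block, which pairs the arrays of a set, the count in Hs578T was 1427 (571 higher and 856 lower) and that between the lines 661. Without 1 array no count over both sets could be formed.

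With 2 arrays a group and a median SE of 0.18, small changes of single genes were not detectable. Larger changes did not pass the adjusted threshold either, so a gene not called is not shown to be unchanged.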

Other observations

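Of the 2235 probe sets that reach a mean of 5 but name no gene or several, 30.2% were higher and 29.5% lower with M in both sets of Hs578T, so that as a whole they did not lean one way, where 27.9% and 37.1% of the probe sets with 1 gene were higher and lower. By at least 0.5 in both sets, 52 were higher (2.33%) and 10 lower (0.447%) with M, where of 16596 probe sets with 1 gene 168 were higher (1.01%) and 203 lower (1.22%). In BT-20, 7 of the 2235 were higher and 12 lower. Which transcripts these probe sets read was not analysed here.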
